A study of Homo sapiens with 6 samples.

Results

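The 10 genes described here, ATF4, DDIT3, ATF3, ATF5, CEBPB, CEBPG, TRIB3, NUPR1, CHAC1 and PPP1R15A, are regulators of the integrated stress response. They were taken from a list of names and matched by Ensembl identifier to the 57820 genes of each count file, and all 10 were found and tested, among 16006 genes tested in all. The members were chosen by their measured differences between the groups compared here, together with their known role. Total RNA was sequenced from C4-2B-ENZR, an enzalutamide-resistant line of human prostate cancer, after transfection with an siRNA against RUVBL1 (3 libraries) or with a negative control siRNA (3 libraries). Enzalutamide blocks the androgen receptor. Both groups are the same resistant line in the same medium, so neither a drug-sensitive line nor untransfected cells serve as a comparison. Whether each replicate was a culture of its own is not stated in the labels, so the errors and p-values given here describe how these libraries vary, which may be technical variation alone. The labels give neither the time after transfection nor the number of siRNA sequences.

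In the integrated stress response, kinases phosphorylate the translation factor eIF2 in response to endoplasmic reticulum stress, amino acid shortage, mitochondrial stress or double-stranded RNA. Most protein synthesis then slows, while the mRNA of ATF4, a bZIP transcription factor, is translated better through short open reading frames in its leader. ATF4 and its partners switch on genes of amino acid supply and redox balance, and then DDIT3 (CHOP), TRIB3 and PPP1R15A (GADD34), which carry the response towards feedback or cell death. RNA counts do not measure ATF4 protein or eIF2 phosphorylation.

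Normalized counts, used throughout, are estimated counts divided by a TMM-adjusted library size and brought back to the mean library. Library totals lay between 18985542 and 25697804 estimated counts after RUVBL1 siRNA and between 24720504 and 36054489 with control siRNA. RUVBL1, an AAA+ ATPase of chromatin-remodelling and protein-assembly complexes, had 2684 ± 57.9 normalized counts after RUVBL1 siRNA and 4698 ± 54.1 with control siRNA (SD, n = 3 each; edgeR adjusted p = 3.74e-10). Its partner RUVBL2 had a log2 fold change of -0.19 (adjusted p = 0.0014), which was not called without TMM factors (-0.09, adjusted p = 0.0977). All 12 luminal prostate markers examined were detected, and their summed level was 3483 to 3646 TPM after RUVBL1 siRNA and 4033 to 4192 TPM with control siRNA. Among immune markers, CD3E was at 0 in all libraries and the summed level was 4.71 to 5.65 TPM after RUVBL1 siRNA and 8.15 to 8.91 TPM with control siRNA, where CD68 alone was abundant enough to be tested (log2 fold change -0.96). COL1A2, DCN and LUM, among 6 stromal markers, were also at 0 in all libraries (summed level 16.6 to 19.0 TPM after RUVBL1 siRNA and 16.0 to 17.3 TPM with control siRNA). The 3 matched endothelial markers summed to 2.08 to 2.31 TPM after RUVBL1 siRNA and 1.59 to 1.96 TPM with control siRNA. The part of these differences in the results below was not tested. In such bulk samples, a change in the share of some cells and a change in RNA per cell cannot be told apart. Both replicate 1 libraries listed 542 genes at 0 that had at least 20 counts in every other library, and 0 of the 10 regulators was among them.

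ATF4 and C/EBP proteins bind as dimers to a composite site, the C/EBP-ATF response element (CARE), searched here as TGATGNAA. RefSeq promoter windows (GRCh38.p14, 250 bases before to 50 after an annotated start) were found for 9 of the 10 genes, 18 windows in all, and NUPR1 had none. On both strands, CARE letters were found in 1 window each of CHAC1, CEBPG and ATF3, while 3.62% of 35116 promoter windows of that length held them. The cyclic AMP response element TGACGTCA, which reads the same on both strands, was found once, in PPP1R15A, and in 1.85% of all windows. The endoplasmic reticulum stress element, CCAAT and CCACG with 9 bases between them, was in none of the 18 windows and in 0.0769% of all. All 10 regulators had higher counts after RUVBL1 siRNA, as given below, but they were chosen with this contrast known. Matches and fold changes therefore cannot be related here. The stretches with a match are shown with the match in capitals, read 5′ to 3′ in the direction of the gene. They end at or before the last base ahead of the start.
CHAC1, chr15:40953221-40953470, plus strand: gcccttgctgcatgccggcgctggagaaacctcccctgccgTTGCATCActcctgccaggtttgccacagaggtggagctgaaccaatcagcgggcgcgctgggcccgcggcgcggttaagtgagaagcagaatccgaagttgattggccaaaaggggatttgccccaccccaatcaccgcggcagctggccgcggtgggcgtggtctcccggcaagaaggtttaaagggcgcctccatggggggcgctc
CEBPG, chr19:33374011-33374112, plus strand: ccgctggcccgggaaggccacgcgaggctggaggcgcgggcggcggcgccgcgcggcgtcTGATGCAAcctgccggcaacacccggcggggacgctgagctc
ATF3, chr1:212565157-212565263, plus strand: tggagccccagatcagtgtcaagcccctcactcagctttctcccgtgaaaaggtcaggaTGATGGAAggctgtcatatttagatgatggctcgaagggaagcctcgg
PPP1R15A, chr19:48872303-48872410, plus strand: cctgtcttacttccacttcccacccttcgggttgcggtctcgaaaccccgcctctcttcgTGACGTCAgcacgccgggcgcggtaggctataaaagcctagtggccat
The match begins 209 bases before the start in CHAC1, on the opposite strand, 42 bases before it in CEBPG, 191 bases before it in ATF3 and 58 bases before it in PPP1R15A. The 250 bases ahead of the start of DDIT3, the regulator with the second highest fold change, held no exact match and are shown for comparison. They do hold CCAAT and CCACT with 9 bases between them, 1 letter from the endoplasmic reticulum stress element searched. Only exact letters were counted, so near matches in any window were missed.
DDIT3, chr12:57520515-57520764, minus strand: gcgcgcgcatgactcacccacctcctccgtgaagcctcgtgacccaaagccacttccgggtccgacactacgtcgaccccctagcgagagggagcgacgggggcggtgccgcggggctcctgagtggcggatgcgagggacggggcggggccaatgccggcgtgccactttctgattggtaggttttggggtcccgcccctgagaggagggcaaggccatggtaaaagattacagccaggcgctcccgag
These matches describe the letters of the reference genome and no binding was measured.

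All 10 regulators had more RNA in every RUVBL1 siRNA library than in any control siRNA library. Groups separated in that direction for 25.3% of all genes tested, and 19.1% of them were called higher by edgeR at an adjusted p under 0.05, a call that all 10 regulators had. The regulators were proposed with this contrast known, so their counts and fold changes are a description and carry no p here. Their log2 fold changes (RUVBL1 siRNA over control siRNA) ran from 0.36 to 1.63 with a median of 0.79, beside a median of 0.01 over all genes tested. A rise of at least 2-fold was seen for 4 of them, CHAC1, DDIT3, TRIB3 and CEBPB, and for 258 of all genes tested. Scaling by library totals without TMM factors adds 0.10 to the log2 fold change of a typical gene, and each of the 10 kept its direction and call under that scaling.

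**Figure D1:**
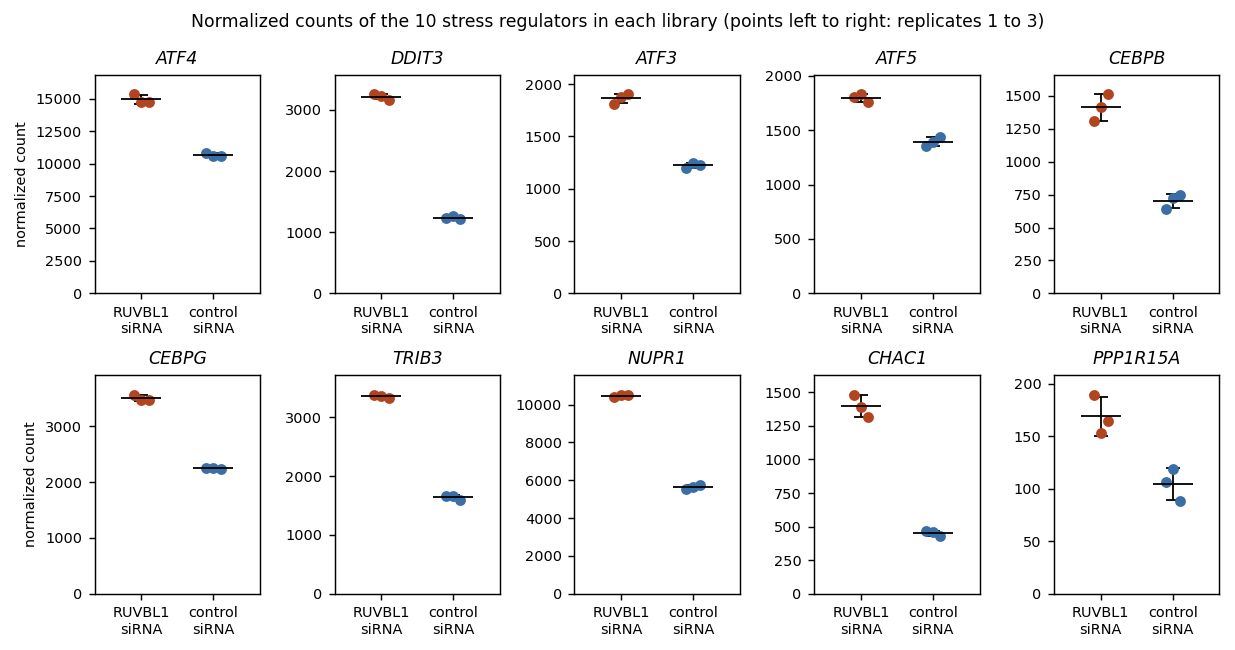
Normalized counts (y axis, from 0) of each regulator in the 3 RUVBL1 siRNA libraries (left) and the 3 control siRNA libraries (right), with the mean and SD in black. The groups are apart in every panel, most narrowly for ATF5 and PPP1R15A, whose lowest RUVBL1 siRNA value was 1.22 and 1.29 times the highest control siRNA value.

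ATF4 (ENSG00000128272), the transcription factor at the centre of the response, had the highest count of the 10. Its normalized counts were 15324, 14728 and 14772 in the RUVBL1 siRNA libraries, against 10804, 10597 and 10618 in the control siRNA libraries. Replicate 1 was the highest library of each group, and the groups did not overlap. The log2 fold change was 0.49 (SE 0.0200), or 1.40-fold, the second smallest of the 10 and above that of 90.8% of genes tested.

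DDIT3 (ENSG00000175197) encodes CHOP, a bZIP factor that pairs with C/EBP proteins and is induced by ATF4. It had 3252, 3233 and 3163 normalized counts after RUVBL1 siRNA, against 1238, 1266 and 1213 with control siRNA. The lowest RUVBL1 siRNA library held 2.50 times the highest control siRNA library. The log2 fold change was 1.38 (SE 0.0307), rank 87 among the genes tested. In the annotation used for lengths, exons of DDIT3 overlap those of MARS1 and MBD6 on the opposite strand, and since the strand setting of the counts is not given in the sources used here, reads of these genes may not have been told apart. MARS1, which encodes methionyl-tRNA synthetase, had 5676 ± 230 normalized counts after RUVBL1 siRNA and 6085 ± 81.6 with control siRNA. Without TMM factors this difference was not called (log2 fold change -0.001, edgeR adjusted p = 0.981). The part of MARS1 or MBD6 reads in the DDIT3 counts was not tested.

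ATF3 (ENSG00000162772) encodes a bZIP factor induced early in many stresses, which can repress or activate with its partners. Its normalized counts were 1812, 1874 and 1901 after RUVBL1 siRNA, against 1199.8, 1248 and 1223 with control siRNA. The 2 sets of values were each within a narrow band, and the log2 fold change was 0.61 (SE 0.0326). ATF5 (ENSG00000169136), the closest relative of ATF4 and also controlled through leader reading frames, had 1803, 1827 and 1754 normalized counts after RUVBL1 siRNA, against 1358, 1386 and 1436 with control siRNA. Its log2 fold change of 0.36 (SE 0.0334) was the smallest of the 10, and the groups did not overlap. Exons of ATF5 overlap those of NUP62 and IL4I1 on the opposite strand. Exons of CEBPB overlap those of CEBPB-AS1 on the opposite strand, and exons of DDIT3 overlap those of AC022506.1 on the same strand. Neither of these 2 genes is among those counted. Estimated counts were whole in all libraries for 7 of the 10 regulators, but not for ATF4, DDIT3 and ATF5.

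CEBPB (ENSG00000172216) and CEBPG (ENSG00000153879) encode C/EBP factors that form dimers with ATF4 and CHOP. CEBPB had 1311, 1415 and 1511 normalized counts after RUVBL1 siRNA, against 638, 722 and 744 with control siRNA. Replicate 1 was the lowest library of each group, and the fold within each replicate number was 2.06, 1.96 and 2.03. The log2 fold change of CEBPB was 1.01 (SE 0.0710), and its coefficient of variation, 7.08% after RUVBL1 siRNA and 7.99% with control siRNA, was the second largest of the 10. CEBPG, a C/EBP protein without an activation domain of its own, had 3569, 3482 and 3468 normalized counts after RUVBL1 siRNA, against 2263, 2263 and 2246 with control siRNA. Its control values varied least of all 10 genes (coefficient of variation 0.441%), and its log2 fold change was 0.64 (SE 0.0267).

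TRIB3 (ENSG00000101255) encodes a pseudokinase that binds ATF4 and CHOP and restrains them. It had 3386, 3359 and 3333 normalized counts after RUVBL1 siRNA, against 1671, 1655 and 1599.8 with control siRNA. The log2 fold change was 1.03 (SE 0.0293), and the fold within each replicate number was 2.03, 2.03 and 2.08. NUPR1 (ENSG00000176046), a small stress-induced chromatin-associated protein, had 10393, 10525 and 10515 normalized counts after RUVBL1 siRNA, against 5513, 5634 and 5742 with control siRNA. The RUVBL1 siRNA values of NUPR1 differed by less than those of any other regulator (coefficient of variation 0.701%), and its log2 fold change was 0.90 (SE 0.0192).

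CHAC1 (ENSG00000128965) encodes a γ-glutamylcyclotransferase that breaks down glutathione and is induced downstream of ATF4, ATF3 and CHOP. Its normalized counts were 1482, 1394 and 1316 after RUVBL1 siRNA, against 466, 456 and 429 with control siRNA. Both groups had their highest value in replicate 1 and their lowest in replicate 3, and the fold within each number was 3.18, 3.06 and 3.07. Its log2 fold change of 1.63 (SE 0.0530) was the highest of the 10 and rank 46 among the genes tested.

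PPP1R15A (ENSG00000087074) encodes GADD34, the stress-induced subunit that brings protein phosphatase 1 to eIF2 and so reverses the signal. It was the least abundant of the 10, with 142, 154 and 151 estimated counts after RUVBL1 siRNA and 97, 156 and 97 with control siRNA, before scaling to library size. After scaling these were 189.6, 153.0 and 164 normalized counts after RUVBL1 siRNA, against 106, 118 and 88.6 with control siRNA. Replicate 2 was the lowest RUVBL1 siRNA library and the highest control siRNA library, and the fold within each number was 1.78, 1.29 and 1.85. The log2 fold change was 0.69 with the widest error of the 10 (SE 0.140).

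**Figure D2:**
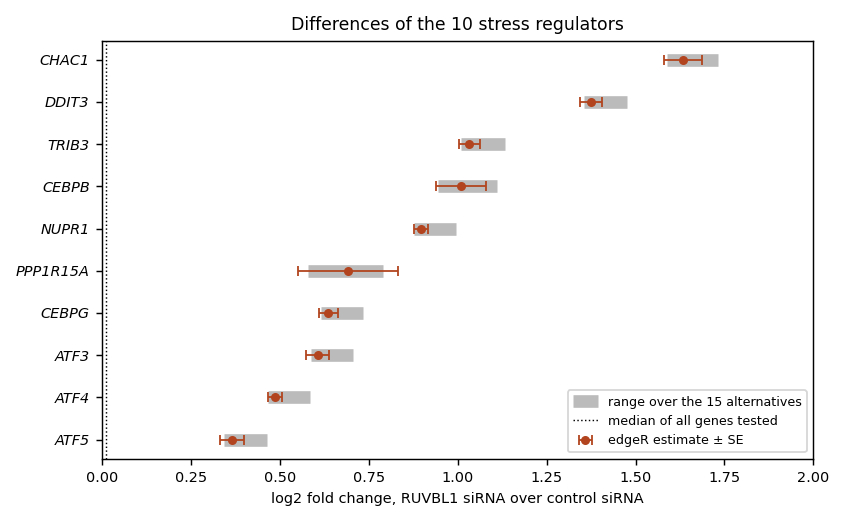
Log2 fold change of each regulator, RUVBL1 siRNA over control siRNA (x axis), with the edgeR estimate and its SE in red and the range over 15 alternative settings in grey. CHAC1 and DDIT3 lie at 1.63 and 1.38, ATF4 and ATF5 at 0.49 and 0.36, and all estimates lie right of the dotted median of all genes tested, 0.01.

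The fitted SE of each of the 10 was at least as large as counting error alone would give, which was 0.0105 for ATF4 and 0.103 for PPP1R15A on the log2 scale. Relative to ATF4, CHAC1 and DDIT3 had groups that did not overlap, while those of PPP1R15A overlapped. Per length, CHAC1 stood at 13.0, 12.7 and 11.9 per 100 of ATF4 after RUVBL1 siRNA, against 5.78, 5.77 and 5.41 with control siRNA. DDIT3 stood at 43.9, 45.4 and 44.3 per 100 of ATF4 after RUVBL1 siRNA, against 23.7, 24.7 and 23.6 with control siRNA. PPP1R15A stood at 1.15, 0.967 and 1.03 per 100 of ATF4 after RUVBL1 siRNA, against 0.916, 1.04 and 0.777 with control siRNA. These ratios follow from the same counts and are given without a test. As a description over the 6 libraries, the most alike pair of regulators was ATF3 and CEBPG, and the least alike was ATF5 and CHAC1. Their log2 normalized counts, each centred on its own mean, differed by a root mean square of 0.04 and 0.64. Since replicates varied little, this measure mostly restates the gap between the fold changes of the genes compared.

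Levels of different genes were compared per length, as counts divided by the median GENCODE 29 transcript length and scaled to the same total in each library (the TPM scale). The level of the 10 regulators summed to 1396, 1372 and 1365 TPM after RUVBL1 siRNA and to 742, 735 and 736 TPM with control siRNA. NUPR1 stood highest on this scale, at 628 ± 1.60 TPM after RUVBL1 siRNA and 315 ± 3.06 with control siRNA (SD, n = 3 each). ATF4 followed at 281 ± 8.86 TPM after RUVBL1 siRNA and 187 ± 4.40 TPM with control siRNA. After RUVBL1 siRNA, DDIT3 came next at 125 ± 2.78, then TRIB3 at 92.6 ± 1.56, ATF3 at 77.8 ± 1.22, ATF5 at 77.7 ± 1.94, CHAC1 at 35.2 ± 2.41, CEBPG at 31.6 ± 0.792, CEBPB at 25.9 ± 1.62 and PPP1R15A at 2.96 ± 0.355 TPM. In that order only ATF3 and ATF5 overlapped.

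With control siRNA, ATF5 ranked 3 at 56.4 ± 1.07 TPM, then ATF3 at 47.8 ± 0.587, DDIT3 at 45.0 ± 1.15, TRIB3 at 42.3 ± 1.42, CEBPG at 19.0 ± 0.299, CEBPB at 12.0 ± 0.812, CHAC1 at 10.6 ± 0.566 and PPP1R15A at 1.71 ± 0.249. Here only CEBPB and CHAC1 overlapped. DDIT3 thus ranked 3 after RUVBL1 siRNA and 5 with control siRNA, and CHAC1 ranked 7 after RUVBL1 siRNA and 9 with control siRNA. The order depends on the length used. Per longest transcript DDIT3 ranked 2 in both groups, and CHAC1 ranked 8 after RUVBL1 siRNA and 9 with control siRNA. Transcripts of NUPR1 have a median length of 598 bases and a longest length of 5491 bases, and per longest transcript NUPR1 ranked 3 in both groups, behind ATF4 and DDIT3.

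**Figure D3:**
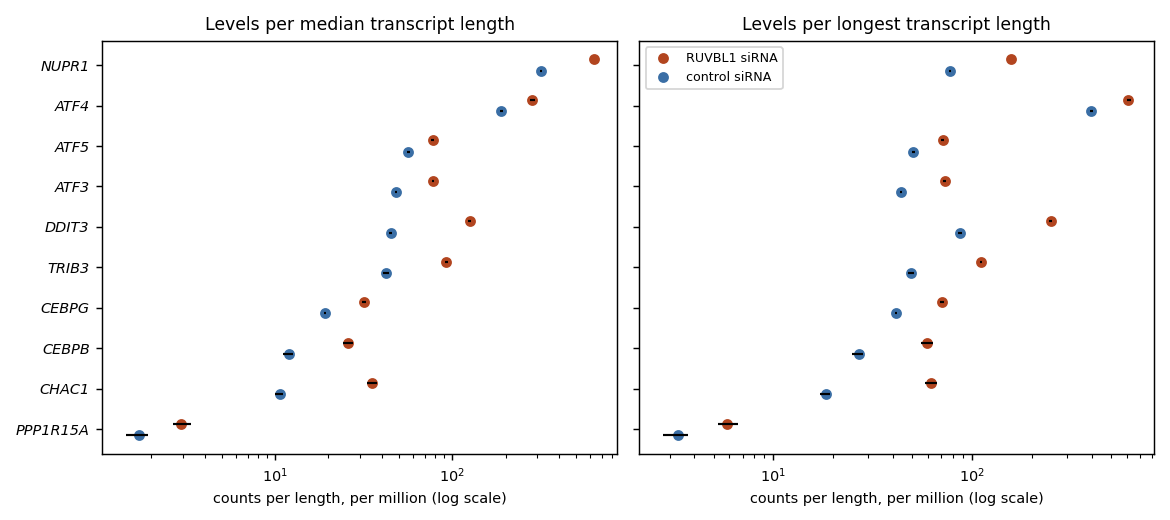
Levels per length on the TPM scale (x axis, log scale) of each regulator after RUVBL1 siRNA (red) and control siRNA (blue), with the range of the 3 libraries as a black line, for the median transcript length (left panel) and the longest transcript (right panel). PPP1R15A is lowest in both panels, at 2.96 TPM after RUVBL1 siRNA and 1.71 TPM with control siRNA in the left one, while NUPR1 changes place between them.

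In the reference annotation, 8 of the 10 regulators have at least 1 AUG in the leader ahead of their coding sequence, and 7 have at least 2, where 51.4% and 31.8% of 19684 coding genes do. One principal transcript per gene was used, ties going to the longest coding sequence and then the longest transcript. Other transcripts can have shorter leaders, and which were present was not tested. In these transcripts ATF4 has 7 such AUGs in a leader of 882 bases and CEBPG and TRIB3 have 3 each. DDIT3, ATF5, NUPR1 and PPP1R15A have 2 each and ATF3 has 1. CEBPB and the chosen transcript of CHAC1, with a leader of only 20 bases, have none. The median leader of all coding genes is 179 bases, and a longer leader has more room for an AUG.

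Among genes outside the regulators with a mean of at least 100 normalized counts (11260 genes), the patterns over the 6 libraries nearest to that of ATF4 included those of UBE2S and RNF187, with root mean square differences of 0.01 each on the centred log2 scale. UBE2S, a ubiquitin-conjugating enzyme of mitosis, had 5289 ± 86.7 normalized counts after RUVBL1 siRNA and 3829 ± 46.0 with control siRNA (SD, n = 3 each). Nearest to DDIT3 were the noncoding RNA 7SK, CD55 and ALDH1A3 (0.09 each). Nearest to CHAC1 were 7SK (0.17), COL16A1 (0.18) and TMEM160 (0.19). Nearness here mostly restates a similar fold change, and shared regulation was not tested. Copies of 7SK elsewhere in the genome can share its reads, so its value is uncertain.

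Genes outside the 10 regulators were then read by role, from lists of known pathway genes, with edgeR's quasi-likelihood test and adjustment over all genes tested. Of those, 42.2% were called in either direction, 19.1% higher and 23.1% lower. Genes of the machinery that phosphorylates eIF2 or answers it were called in both directions. Of 23 genes, 6 rose and 11 fell, with a median log2 fold change of -0.11, and without TMM factors 10 rose and 7 fell. GCN1, the ribosome-bound activator of the amino acid sensor kinase GCN2, fell most, with 3881, 3650 and 3633 normalized counts after RUVBL1 siRNA against 6573, 6581 and 6474 with control siRNA (log2 fold change -0.81, edgeR adjusted p = 3.74e-10). EIF2S1, the eIF2 subunit that is phosphorylated, had 4034 ± 67.3 normalized counts after RUVBL1 siRNA and 5328 ± 120 with control siRNA (log2 fold change -0.40, edgeR adjusted p = 4.87e-08). EIF2B4, a subunit of the exchange factor that phosphorylated eIF2 inhibits, fell (log2 fold change -0.34), as did DNAJC3 (-0.39), a chaperone also known as an inhibitor of eIF2 kinases.

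The 4 eIF2 kinases did not move alike. EIF2AK1 (HRI, the haem and mitochondrial stress kinase) had 3043 ± 54.8 normalized counts after RUVBL1 siRNA and 2548 ± 35.5 with control siRNA and rose (log2 fold change 0.26, edgeR adjusted p = 1.16e-05). EIF2AK3 (PERK, the endoplasmic reticulum kinase) fell, with a mean of 534 after RUVBL1 siRNA and 706 with control siRNA (log2 fold change -0.40, edgeR adjusted p = 0.000149). EIF2AK4 (GCN2) had overlapping groups and a log2 fold change of -0.12 (edgeR adjusted p = 0.0388), a call lost without TMM factors (-0.02, adjusted p = 0.744) and by the DESeq2 test (adjusted p = 0.0681). It was also lost without control siRNA replicate 1 or 3 and without RUVBL1 siRNA replicate 2 or 3 (edgeR adjusted p between 0.0823 and 0.131). EIF2AK2 (PKR) had a log2 fold change of -0.12 and was not called (edgeR adjusted p = 0.101).

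Most effector genes of ATF4 were higher. Of 49 listed genes 47 were tested, of which 38 rose and 4 fell, with a median log2 fold change of 0.36, and FGF21 and INHBE had too few counts to be tested. ASNS, which makes asparagine, had 13925, 13872 and 13547 normalized counts after RUVBL1 siRNA, against 6230, 6208 and 6223 with control siRNA (log2 fold change 1.15, edgeR adjusted p = 1.14e-12). DDIT4, an inhibitor of mTORC1, rose 2.25-fold, PCK2, the mitochondrial phosphoenolpyruvate carboxykinase, 1.93-fold, and the serine synthesis gene PSAT1 1.67-fold. SESN2, a leucine sensor that restrains mTORC1, rose 1.96-fold and GDF15, a secreted stress hormone, 1.44-fold (edgeR adjusted p = 2.89e-09 and 1.51e-07). The 4 that fell were ALDH18A1 (log2 fold change -0.37), which makes a proline precursor, CCPG1 (-0.30), an endoplasmic reticulum autophagy receptor, and the tRNA synthetase genes MARS1 (-0.10) and EPRS1 (-0.07). Without TMM factors MARS1 was not called (adjusted p = 0.981) and EPRS1 had a log2 fold change of 0.03 (adjusted p = 0.265). The call of MARS1 was also lost without RUVBL1 siRNA replicate 3 (edgeR adjusted p = 0.0635).

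Genes linked to CHOP, cell death and oxidation, with survival genes among them, were called in both directions. Of 12 tested, 5 rose and 5 fell, with a median log2 fold change of -0.05. The BH3-only genes BBC3, PMAIP1 and BCL2L11 rose by log2 fold changes of 0.75, 0.74 and 0.25, the growth arrest gene GADD45A by 0.58 and the inflammatory caspase gene CASP4 by 0.33. BBC3, which encodes PUMA, had 208, 208 and 209.7 normalized counts after RUVBL1 siRNA, against 107, 130 and 133 with control siRNA (edgeR adjusted p = 0.000186). The death receptor genes TNFRSF10A and TNFRSF10B fell (log2 fold changes -0.78 and -0.12, edgeR adjusted p = 9.44e-07 and 0.00758). So did the chaperone gene DNAJB9 (-0.32), the oxidase gene ERO1A (-0.14) and the survival gene MCL1 (-0.09). Without TMM factors only TNFRSF10A and DNAJB9 of these 5 were called lower, and MCL1 had a log2 fold change of 0.01 (adjusted p = 0.904).

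Listed genes of the other branches of the unfolded protein response, run by ATF6 and by IRE1 and XBP1, were mostly lower in RNA. Activity of these branches was not measured. Of 27 tested genes 20 fell and 4 rose, with a median log2 fold change of -0.21. Over the alternative settings 15 to 20 fell and 4 to 6 rose. DNAJB9 and DNAJC3, given above with other lists, are among the 20. The lectin chaperone gene CANX had 12687, 12238 and 12410 normalized counts after RUVBL1 siRNA, against 17632, 17704 and 17748 with control siRNA (log2 fold change -0.51, edgeR adjusted p = 1.51e-09). The disulfide isomerase genes PDIA6 and PDIA4 fell (log2 fold changes -0.36 and -0.44), as did HSPA5 (-0.24), the gene of the chaperone BiP. The 4 that rose were HERPUD1 (log2 fold change 0.41), a component of endoplasmic reticulum degradation that ATF4 can also induce, SDF2L1 (0.20), SEC61B (0.19) and ERN1 (0.19), the gene of IRE1. XBP1 had 6654 ± 87.2 normalized counts after RUVBL1 siRNA and 6519 ± 116 with control siRNA (SD, n = 3 each) and was not called (edgeR adjusted p = 0.240). Without TMM factors it was called higher (log2 fold change 0.13, adjusted p = 0.000297), as it was in replicates 2 and 3 alone (0.05, adjusted p = 0.0364).

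**Figure D4:**
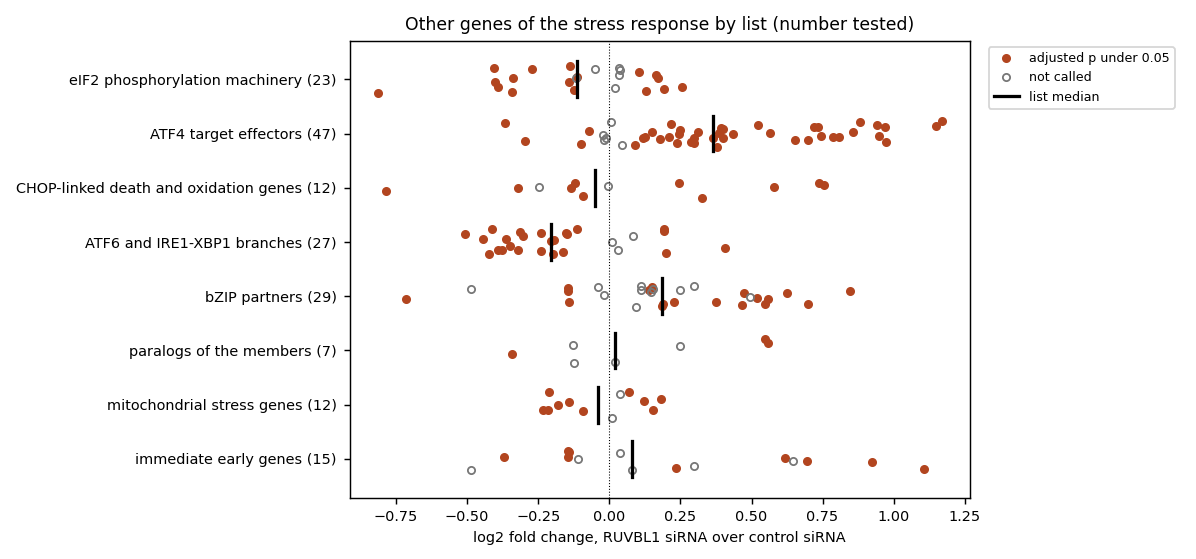
Log2 fold changes of pathway genes outside the 10 regulators (x axis, RUVBL1 siRNA over control siRNA), 1 row per list with the number tested, filled where the edgeR adjusted p was under 0.05, with the list median as a black bar. ATF4 target effectors lie mostly right of 0 (median 0.36) and genes of the ATF6 and IRE1-XBP1 branches mostly left of it (median -0.21).

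Other bZIP factors that can pair with the regulators were partly higher. Of 29 tested, 14 rose and 4 fell, with a median log2 fold change of 0.18, and without TMM factors 19 rose and 1 fell. DBP, a factor of the circadian clock, rose by a log2 fold change of 0.70 and ATF2 by 0.47 (edgeR adjusted p = 1.65e-05 and 3.18e-05). The 4 that fell were NFE2L3 (-0.71), JUN (-0.15), JUNB (-0.15) and NFE2L1 (-0.14), and NFE2L3 alone kept its call without TMM factors. Paralogs of the regulators went their own ways. JDP2, the relative of ATF3, rose by 0.56 and CEBPD by 0.55 (edgeR adjusted p = 0.000123 and 0.000982). CHAC2, the relative of CHAC1 thought to act on basal glutathione, fell (log2 fold change -0.34, edgeR adjusted p = 0.0124), a call lost without TMM factors (adjusted p = 0.0635) and without control siRNA replicate 1 (adjusted p = 0.0530).

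PPP1R15B, the constitutive counterpart of PPP1R15A, had 1503 ± 8.34 normalized counts after RUVBL1 siRNA and 1482 ± 9.90 with control siRNA (SD, n = 3 each). It was not called (log2 fold change 0.02, edgeR adjusted p = 0.642), but was called higher without TMM factors (0.12, adjusted p = 0.00626). TRIB1 (-0.12) and TRIB2 (-0.13), relatives of TRIB3, and CEBPA (0.25) were not called (edgeR adjusted p between 0.167 and 0.715). NUPR2 was at 0 in all libraries and CEBPE had too few counts to be tested.

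Of 12 genes of mitochondrial protein stress, to which ATF5 has been tied, 4 rose and 6 fell, all by small amounts. The protease gene LONP1 rose by a log2 fold change of 0.18 and the chaperone gene TRAP1 fell (-0.18; edgeR adjusted p = 2.07e-05 and 2.80e-05), as did the protease genes AFG3L2 (-0.23) and YME1L1 (-0.21). ATF3 and PPP1R15A are also known as immediate early genes. Of 15 tested genes of that class 5 rose and 4 fell, and EGR1, EGR2 and EGR3 had too few counts to be tested. NR4A1, KLF4, KLF6 and KLF2 rose by log2 fold changes of 0.69, 0.93, 0.62 and 1.11 and DUSP1 by 0.24 (edgeR adjusted p between 1.37e-05 and 0.0344). The call of DUSP1 was lost under 6 alternatives, including replicates 2 and 3 alone (adjusted p = 0.0951), and that of KLF2 without RUVBL1 siRNA replicate 3 (adjusted p = 0.0516). BTG2 (-0.37), JUN and JUNB (-0.15 each) and MYC (-0.14) fell, and of these 4 BTG2 alone kept its call without TMM factors. The call of MYC was also lost without RUVBL1 siRNA replicate 2 or 3 (adjusted p = 0.0823 and 0.0827). FOS had 21.9 ± 4.64 normalized counts after RUVBL1 siRNA and 30.8 ± 6.57 with control siRNA and was not called (edgeR adjusted p = 0.226).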

How the data were processed

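RNA sequencing of total RNA was analysed from 6 libraries of C4-2B-ENZR cells, grouped and numbered from the labels. Each deposited file gives an estimated count for every gene, with no scaling by depth. The mouse builds mm8 and mm9 and the aligner Bowtie 0.12.2 appear per the submitters' processing notes, although cells and Ensembl identifiers are human. The counter, human build, strand setting and filters were not given in the sources used here. Coordinates of the counted genes are therefore not printed. Symbols were matched by stable identifier for 51996 of 57820 genes. The members and lists were chosen with earlier results of these data known.

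Counts were rounded and fitted with edgeR 4.0.16 in R 4.3.3 (filterByExpr, TMM factors, robust quasi-likelihood test, two-sided, group as the only term), with Benjamini-Hochberg adjustment over 16006 genes and a threshold of 0.05. The SE is the absolute log2 fold change divided by the square root of F. Normalized counts are scaled to the mean effective library size of 26348516. The test was tried on simulated counts. Alternatives used DESeq2 1.42.0, limma-voom (limma 3.58.1), other scalings, other filters, a replicate block and left-out libraries. Libraries of the same number deviated together from their group means (correlations 0.939, 0.819 and 0.823). Replicates 2 and 3 did so across numbers as well (0.817 and 0.807). Without the 542 genes at 0 in replicate 1, the same-number correlations were 0.706, 0.408 and 0.437. These correlations set replicate 1 apart but do not show that replicates 2 and 3 are paired by number. The labels state no pairing, and the main fit used none.

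Genes named were the 10 members, 19 fixed genes, the 4 smallest p of each list and the 3 nearest patterns of ATF4, DDIT3 and CHAC1, of which some are not reported here. Genes named beyond these, to complete a count of 6 or fewer, were chosen after their values were seen, as were CEBPA, FOS and CD68. Levels and leaders used GENCODE 29 transcripts, of a release that may differ from the one counted. Promoters came from RefSeq.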

Additional observations from a re-analysis of the deposited data

How the results depend on the processing

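The 10 regulators were all called higher, and none lower, under all 15 alternatives, the replicate block among them. Their median log2 fold change of 0.79 became 0.89 without TMM factors, 0.77 with no low-count filter and 0.76 in replicates 2 and 3 alone, and ranged from 0.76 to 0.84 with 1 library left out. The median level per length became 72.0 TPM after RUVBL1 siRNA and 46.5 with control siRNA per longest transcript, against 77.8 and 43.6 per median length. Without TMM factors, 4981 genes overall were higher and 2297 lower, against 3060 and 3695. Under the same scaling the genes that fell numbered 2 among ATF4 effectors, 2 among CHOP-linked genes, 1 among bZIP partners, 1 among immediate early genes, 7 in the eIF2 machinery (10 rose) and 0 among paralogs, and EPRS1, HSPE1 and MCL1 had log2 fold changes of 0.027, 0.0083 and 0.0051, opposite in sign to the -0.07, -0.09 and -0.09 with TMM factors. The median log2 fold change differed by 0.10 between the scalings, and TMM factors assume that most genes do not differ. With 1 library left out the paralogs that fell ranged from 0 to 1, since CHAC2 lost its call without control siRNA replicate 1. The replicate block changed no reported call among the 91 genes checked, which did not include CEBPA, FOS and CD68. PPP1R15A, at 97 to 156 estimated counts, is where depth limits precision most.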
